A study of Homo sapiens with 4 samples.

Results

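Knockdown of *FLI1* did not give the same transcript changes in U87MG and U251MG glioblastoma cells, and the genes described here are those whose knockdown difference itself differed between the cell lines. For each gene, the log2 difference between shFLI1 and control in U87MG was subtracted from the same difference in U251MG, which is called here the difference of differences. A positive value places the gene higher after knockdown in U251MG than in U87MG, relative to each line's own control, and a negative value places it lower. Of 11578 genes with at least 100 counts in 2 or more of the 4 libraries, 423 had a difference of differences past 2-fold (3.65%), 167 of them positive (1.44%) and 256 negative (2.21%). They divided into 137 genes that were past 2-fold in U87MG with little change in U251MG, 37 for which the reverse held, 69 that moved in opposite directions, 66 that moved in the same direction by different amounts and 114 in between. Little change meant a log2 fold change under 0.5, and opposite movement meant log2 fold changes of opposite sign of at least 0.5 each.

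Both cell lines are established human glioblastoma lines, grown in DMEM with 10% serum, infected with lentivirus in the presence of polybrene and selected with puromycin as mixed stable cells, not single clones. In each line, 1 library came from cells carrying the pGreen empty vector (the control) and 1 from cells carrying shRNA against *FLI1*. The paper lists 2 shRNAs against *FLI1* and does not state which of them the sequenced cells carried. All 4 groups share the infection and the selection. The 4 libraries held 12229780 to 28891055 counts in linear RNAs. With 1 library per cell line and arm, a model with a cell line, an arm and their difference has 4 parameters and leaves 0 residual degrees of freedom, so no test between the lines was possible and no P-value is given. In bulk RNA, a change in the share of cells in some state and a change in the RNA of each cell cannot be told apart. The intervals given after a difference are 95% counting intervals and cover counting error only, not the spread between cultures. Levels are CPM (reads relative to the library total) scaled by the trimmed mean of M-values (TMM), and fold changes are log2 values computed with a prior count of 2. The authors' FPKM of each gene, as log2(FPKM + 1) or log2(FPKM + 0.1), served as an alternative unit. Of these, log2(FPKM + 1) understates differences of genes with low levels. The cause of other differences between the units was not tested.

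Summed over 8 glial and glioma marker genes, the level was 5799 to 9376 CPM in the 4 libraries. The markers of immune, endothelial, epithelial and oligodendrocyte cells that were present in the table summed to at most 9.98 CPM per list, and none of these 4 lists had a member with enough counts to be tested. The 4 neuron markers summed to 16.1 to 36.0 CPM, and 2 of them were tested, with differences of differences of 0.32 and 0.63.

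FLI1 is a transcription factor of the ETS family, whose members bind DNA through a conserved domain that recognizes a GGAA core. It is best known in blood and endothelial cells and in Ewing sarcoma, where a fusion protein carries its DNA-binding domain. U87MG and U251MG come from different tumors and are known to differ in their mutations and copy number. *FLI1* itself went from 9.34 to 2.34 CPM in U87MG and from 12.1 to 3.71 CPM in U251MG. Its log2 fold change was -1.95 in U87MG and -1.68 in U251MG, and the difference of differences was 0.27 (interval -0.29 to 0.87). The depletion of the *FLI1* transcript in the 2 lines was therefore not distinguishable at this depth, which rests on 52 counts in the U87MG shFLI1 library. In U87MG 544 genes were past 2-fold (4.70%), and in U251MG 329 (2.84%). The standard deviation of the log2 fold change over all genes tested was 0.51 in U87MG and 0.47 in U251MG, and that of the difference of differences was 0.46 around a median of -0.01.

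**Figure D1:**
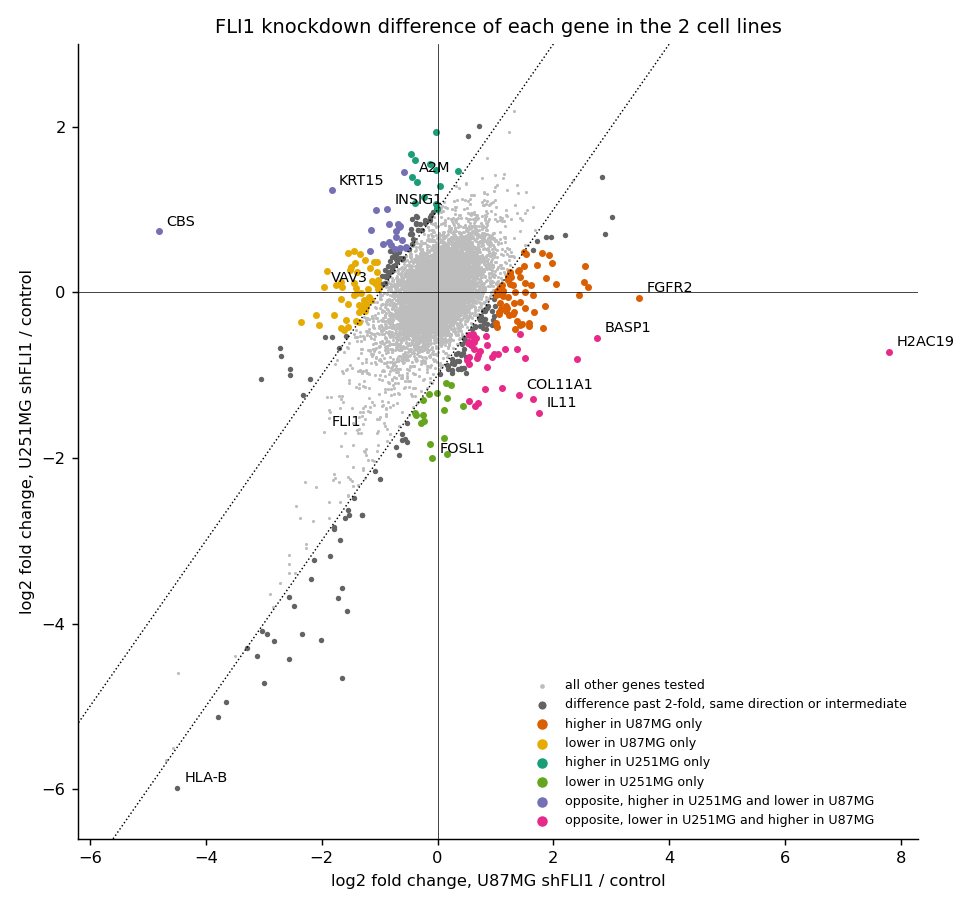
Log2 fold change of each tested gene that has a symbol after *FLI1* knockdown in U87MG (x axis) and in U251MG (y axis), 1 library per cell line and arm, with the classes in colour and dotted lines where the lines differ by 2-fold. The genes beyond the dotted lines are those described here, and *FLI1* lies between the lines at -1.95 and -1.68. The position of *H2AC19* on the x axis depends on the prior count, since its U87MG control count was 0, and its reads may be split with *H2AC18*.

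The largest of the 6 classes of one-line or opposite movement was higher after knockdown in U87MG with little change in U251MG. It held 82 genes, of which 66 had a symbol and 51 were protein-coding, and its median log2 fold changes were 1.32 (U87MG) and 0.01 (U251MG). At least 1 library was under 100 counts in 65 of the 82. The counting interval of the difference of differences lay wholly past 2-fold for 16. By that count the class was not the largest, with 20 genes in the class lower in U87MG only and 17 and 25 in the 2 opposite classes. *FGFR2*, which encodes a receptor for fibroblast growth factors, went from 1.48 to 17.6 CPM in U87MG and from 8.92 to 8.52 CPM in U251MG. Its U87MG control level, which stands on 17 counts, was the lowest of the 4, and the shFLI1 library of U87MG was above both U251MG libraries. The difference of differences of *FGFR2* was -3.55 (interval -4.34 to -2.85). *APBA2*, a neuronal adaptor that binds the amyloid precursor protein, measured 2.62 CPM in the U87MG control, 16.3 CPM in U87MG shFLI1, 75.4 CPM in the U251MG control and 78.8 CPM in U251MG shFLI1. *APBA2* was thus higher after knockdown in U87MG, at a level still well under that of U251MG, where the libraries were nearly equal. *SCN3A*, a voltage-gated sodium channel subunit, went from 3.58 to 21.2 CPM in U87MG and from 8.41 to 9.15 CPM in U251MG. *ARNT2*, a bHLH-PAS transcription factor of the nervous system, went from 2.18 to 12.3 CPM in U87MG and from 16.8 to 16.4 CPM in U251MG. *CCL2*, a chemokine that attracts monocytes, measured 7.60 CPM in the U87MG control, 22.8 CPM in U87MG shFLI1, 31.1 CPM in the U251MG control and 24.0 CPM in U251MG shFLI1. The U251MG libraries of *ARNT2* and *SCN3A* differed by under 0.2 on the log2 scale, whereas *CCL2* was slightly lower after knockdown in U251MG (log2 fold change -0.37). The differences of differences were -2.53 (interval -3.09 to -2.01) for *APBA2*, -2.41 (interval -2.97 to -1.89) for *SCN3A*, -2.48 (interval -3.13 to -1.88) for *ARNT2* and -1.94 (interval -2.31 to -1.58) for *CCL2*. The rest of this class included *PCDH19* and *CDH12*, a protocadherin and a cadherin, *FEZ1* and *CADM1*, and *MSI1*, an RNA-binding protein of neural progenitors, which were named after their values were seen. In 3 of the 82 genes, *CDH12* with 3 and 7 counts among them, both U251MG libraries were under 1 CPM, so for these the other line held too few reads to show a response.

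Lower in U87MG with little change in U251MG were 55 genes, 54 of them with a symbol, and the log2 fold change had a median of -1.36 for U87MG and -0.01 for U251MG. *VAV3*, a guanine nucleotide exchange factor, went from 41.3 to 10.5 CPM in U87MG and from 42.4 to 44.2 CPM in U251MG. Its 2 controls were nearly level, so that the U87MG shFLI1 library was the one that stood apart. *ABCC2*, an export pump for conjugated drugs and bilirubin, went from 18.1 to 6.16 CPM in U87MG and from 12.8 to 17.8 CPM in U251MG. *PLCXD3*, a phosphatidylinositol-specific phospholipase C domain protein, measured 4.98 CPM in the U87MG control, 1.26 CPM in U87MG shFLI1, 23.4 CPM in the U251MG control and 28.1 CPM in U251MG shFLI1. The U87MG shFLI1 value of *PLCXD3* stands on 28 counts, and in FPKM its difference of differences was under 2-fold, at 0.23 with log2(FPKM + 1) and 0.52 with log2(FPKM + 0.1). *CEBPA*, a transcription factor of myeloid, fat and liver cells, went from 105 to 39.0 CPM in U87MG and from 16.5 to 21.1 CPM in U251MG, and *HAS2*, which makes hyaluronan, went from 59.6 to 22.7 CPM in U87MG and from 28.7 to 34.1 CPM in U251MG. Both were higher in the U87MG control than in any other library. As differences of differences, these came to 2.02 (interval 1.77 to 2.29) for *VAV3*, 2.01 (interval 1.64 to 2.41) for *ABCC2*, 2.16 (interval 1.56 to 2.90) for *PLCXD3*, 1.78 (interval 1.55 to 2.02) for *CEBPA* and 1.63 (interval 1.41 to 1.86) for *HAS2*. Among the other 50 genes of the class, *IDH1*, the cytosolic isocitrate dehydrogenase, chosen after its values were seen, went from 86.9 to 42.0 CPM in U87MG and from 52.9 to 68.3 CPM in U251MG, and *PDGFRB*, the PDGF receptor beta, went from 3.49 to 1.03 CPM in U87MG and from 7.01 to 6.61 CPM in U251MG. In FPKM *PDGFRB* had the other sign, at -0.27 with log2(FPKM + 1) and -0.53 with log2(FPKM + 0.1), so its direction depends on the unit. The neighbouring genes *DLX6* and *DLX6-AS1*, a homeobox gene and its antisense transcript, also chosen after their values were seen, were both in the class, with differences of differences of 1.10 and 1.28, or 0.75 and 0.79 with log2(FPKM + 1). Whether counting used strand is not given in the sources used here, so reads of *DLX6* and *DLX6-AS1* may not be separable.

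**Figure D2:**
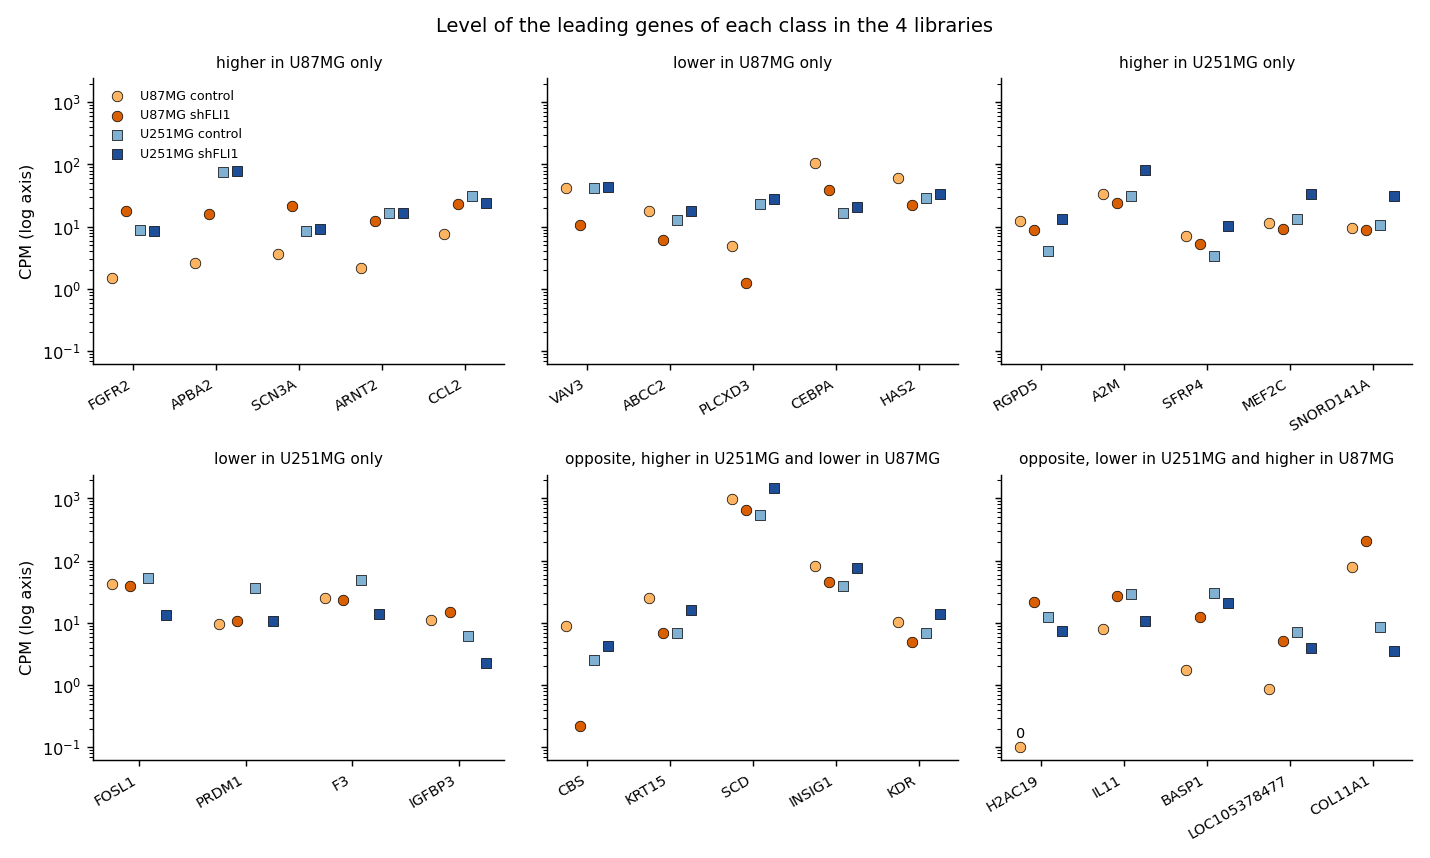
CPM on a log axis of the genes of each class with the strongest counting support, 5 in a class and 4 in the class lower in U251MG only, 1 point per library, orange circles for U87MG and blue squares for U251MG, with the paler symbol for the control. In the U87MG classes the blue squares of a gene lie close together, in the U251MG classes the orange circles do, and in the opposite classes the 2 pairs run in opposite directions; the point marked 0 is the U87MG control of *H2AC19*, drawn at the foot of the axis.

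Genes with a response in U251MG alone were fewer. The 17 that were higher in U251MG had medians of 1.39 there and -0.03 in U87MG on the log2 scale. *A2M*, the protease inhibitor alpha-2-macroglobulin, went from 33.4 to 24.5 CPM in U87MG and from 31.4 to 82.4 CPM in U251MG. *SFRP4*, a secreted antagonist of Wnt ligands, went from 6.99 to 5.31 CPM in U87MG and from 3.37 to 10.4 CPM in U251MG, and *MEF2C*, a transcription factor of muscle and neurons, went from 11.5 to 9.04 CPM in U87MG and from 13.1 to 33.3 CPM in U251MG. In all 3 the U251MG shFLI1 library was the highest of the 4, and the U87MG shFLI1 library was a little under its control. Between the lines they differed by 1.84 (interval 1.61 to 2.07) for *A2M*, 1.99 (interval 1.45 to 2.59) for *SFRP4* and 1.69 (interval 1.32 to 2.07) for *MEF2C*. The small nucleolar RNA gene *SNORD141A* went from 9.61 to 8.72 CPM in U87MG and from 10.5 to 30.8 CPM in U251MG and was also in the class at 1.68, although libraries made from poly-A RNA sample such genes poorly. *RGPD5*, a partial copy of the Ran-binding protein gene *RANBP2*, was first in the class by counting support and went from 12.1 to 8.77 CPM in U87MG and from 4.04 to 13.1 CPM in U251MG, at 2.14 (interval 1.68 to 2.64). *RGPD5* has near-identical copies, however, and the sum of *RGPD5*, *RGPD6* and *RGPD8* went from 53.4 to 88.3 CPM in U87MG and from 62.0 to 76.2 CPM in U251MG, a difference of differences of -0.43. The direction for *RGPD5* alone is therefore uncertain, since reads may have been split among the copies, and in FPKM it was under 2-fold, at 0.38 with log2(FPKM + 1) and 0.60 with log2(FPKM + 0.1).

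Lower in U251MG with little change in U87MG were 20 genes, whose log2 fold changes had medians of -1.44 (U251MG) and -0.05 (U87MG). *F3*, tissue factor, which starts blood coagulation, had 49.6 and 13.9 CPM in the U251MG control and shFLI1 libraries and 25.5 and 23.2 CPM in those of U87MG. *FOSL1*, the AP-1 subunit FRA-1, went from 42.0 to 39.4 CPM in U87MG and from 53.5 to 13.3 CPM in U251MG. *PRDM1*, the transcriptional repressor BLIMP-1, went from 9.78 to 10.6 CPM in U87MG and from 36.2 to 10.6 CPM in U251MG. For *PRDM1*, the U251MG shFLI1 library was close to both U87MG libraries and the U251MG control stood above them. *IGFBP3*, which binds insulin-like growth factors, went from 11.1 to 15.1 CPM in U87MG and from 6.11 to 2.30 CPM in U251MG. The differences of differences were -1.70 (interval -1.97 to -1.44) for *F3*, -1.91 (interval -2.15 to -1.68) for *FOSL1*, -1.88 (interval -2.26 to -1.51) for *PRDM1* and -1.81 (interval -2.37 to -1.32) for *IGFBP3*. *LGR5*, a receptor for R-spondins, named after its values were seen, had 16.7 and 4.24 CPM in the U251MG control and shFLI1 libraries and 0.873 and 0.989 CPM in those of U87MG, so it was near the limit of detection in U87MG.

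In the class of opposite movement, 25 genes were higher in U251MG and lower in U87MG. Their median log2 fold change was 0.74 in U251MG and -0.72 in U87MG. *SCD*, the stearoyl-CoA desaturase that makes monounsaturated fatty acids, went from 981 to 659 CPM in U87MG and from 544 to 1492 CPM in U251MG. *INSIG1*, the endoplasmic reticulum protein that retains the sterol sensor, went from 81.9 to 44.7 CPM in U87MG and from 38.7 to 77.7 CPM in U251MG. For both genes the U87MG control was above the U251MG control and the order was reversed after knockdown. *KDR*, the VEGF receptor 2, went from 10.3 to 4.90 CPM in U87MG and from 6.84 to 13.7 CPM in U251MG, and *KRT15*, a type I keratin, went from 24.8 to 6.92 CPM in U87MG and from 6.84 to 16.2 CPM in U251MG. *CBS*, cystathionine beta-synthase, which begins the conversion of homocysteine to cysteine, went from 8.91 to 0.225 CPM in U87MG and from 2.52 to 4.27 CPM in U251MG. The U87MG shFLI1 value of *CBS* stands on 5 counts. A near-identical copy of *CBS* is annotated in GRCh38, so its counts are uncertain. As differences of differences, these came to 2.03 (interval 1.98 to 2.08) for *SCD*, 1.88 (interval 1.70 to 2.06) for *INSIG1*, 2.05 (interval 1.59 to 2.54) for *KDR*, 3.06 (interval 2.68 to 3.48) for *KRT15* and 5.54 (interval 4.60 to 7.26) for *CBS*. With log2(FPKM + 1) *KDR* was under 2-fold, at 0.92. *SOCS3*, an inhibitor of cytokine receptor signaling that was chosen after its values were seen, belonged to the same class and went from 39.998 to 24.4 CPM in U87MG and from 24.7 to 41.3 CPM in U251MG.

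The reverse pattern, lower in U251MG and higher in U87MG, held for 44 genes, at medians of -0.71 (U251MG) and 0.84 (U87MG). *IL11*, a cytokine of the IL-6 family, went from 7.95 to 27.1 CPM in U87MG and from 29.4 to 10.7 CPM in U251MG. The shFLI1 library of U87MG and the U251MG control were thus at similar levels, and the other 2 libraries were lower. *COL11A1*, a fibrillar collagen chain, went from 78.4 to 207 CPM in U87MG and from 8.64 to 3.61 CPM in U251MG. *BASP1*, a membrane protein of nerve growth cones, went from 1.75 to 12.4 CPM in U87MG and from 30.1 to 20.6 CPM in U251MG, and the non-coding gene *LOC105378477* went from 0.873 to 5.08 CPM in U87MG and from 7.07 to 4.01 CPM in U251MG. Between the lines they differed by -3.21 (interval -3.60 to -2.85) for *IL11*, -2.64 (interval -3.03 to -2.29) for *COL11A1*, -3.31 (interval -4.01 to -2.68) for *BASP1* and -3.22 (interval -4.28 to -2.31) for *LOC105378477*. *H2AC19*, a replication-dependent histone H2A gene, had 0 counts in the U87MG control and 482 in U87MG shFLI1, and 220 and 224 counts in the U251MG control and shFLI1 libraries. Against a floor of 3 counts in the control library, *H2AC19* was at least 82.7-fold higher after knockdown in U87MG. It has an identical-protein neighbour, *H2AC18*, and the sum of both went from 791 to 485 CPM in U87MG and from 951 to 666 CPM in U251MG, a difference of differences of 0.19. The value for *H2AC19* alone is therefore uncertain in the same way as that of *RGPD5*. The neighbouring imprinted non-coding genes *MEG3* and *MEG8* on chromosome 14 were both in the class, chosen after their values were seen. *MEG3* went from 4.98 to 8.95 CPM in U87MG and from 29.7 to 20.5 CPM in U251MG, and *MEG8* went from 3.76 to 5.89 CPM in U87MG and from 20.3 to 13.4 CPM in U251MG. In FPKM *MEG3* was under 2-fold, at -0.76 with log2(FPKM + 1).

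Few reads stood behind many of the members. At least 1 library was under 100 counts in 218 of the 423 genes, and the counting interval of the difference of differences lay wholly past 2-fold for 154. In 17 members at least 1 library had 3 counts or fewer. Of these, 8 were in the class higher in U87MG only, 7 in the class lower in U251MG and higher in U87MG, and 2 in the class higher in U251MG only. Among the 8 were *MACROH2A2* and *CLMN*, named after their values were seen, each with 0 and 4 counts in the U87MG libraries, which is too few to show a change in U87MG. Among the 7 was *TGM2*, transglutaminase 2, named after its values were seen, which had 0 and 4 counts in the U87MG libraries and 140 and 134 in those of U251MG. Just inside the threshold were *LINC01118* at -1.0037, *ATP7B* at -1.0038 and *COL6A3* at 1.0059, and just outside it were *ARHGEF4* at -0.9984, *GTF2IRD2* at 0.9966 and *C1orf198* at 0.9951.

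Members were more frequent among genes with few reads and among non-coding RNAs. Among the 20% of genes with the lowest mean counts, 191 of 2318 were past 2-fold (8.24%), and among the 20% with the highest, 49 of 2316 (2.12%). By type, 333 of 10802 protein-coding genes (3.08%) and 37 of 440 lncRNA genes (8.41%) were past 2-fold. Of 206 identifiers without a gene symbol, which include RNAcentral entries, 48 were (23.3%), at median log2 fold changes of 0.49 (U87MG) and 0.12 (U251MG). With genes ranked by transcript GC content in 5 equal groups, the median difference of differences ran from -0.04 in the lowest group to 0.05 in the highest.

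Of the sterol and fatty acid synthesis genes tested, 23 of 29 were lower after knockdown in U87MG and 28 of 29 were higher in U251MG. These genes are driven by the SREBP transcription factors, which are held in the endoplasmic reticulum when sterols are plentiful. All 29 tested members of the list had a positive difference of differences, and 8 were past 2-fold, where 1.44% of all genes tested were past it on that side. The median log2 fold change of the list was -0.25 in U87MG and 0.45 in U251MG, and the median difference of differences was 0.62, against -0.01 over all genes tested. *LSS*, lanosterol synthase, went from 144 to 111 CPM in U87MG and from 93.8 to 167 CPM in U251MG. It was lower after knockdown in U87MG and higher in U251MG, as *SCD* and *INSIG1* were. The difference of differences of *LSS* was 1.20 (interval 1.08 to 1.32). Also past 2-fold were *CYP51A1* and *FADS2* at 1.17 and 1.17, *MVK* at 1.07 and *FASN*, fatty acid synthase, at 1.06. With libraries scaled by total counts, *MVK* and *FASN* were just under it at 0.99 and 0.98. *ACLY*, which makes cytosolic acetyl-CoA, was the lowest of the list at 0.11. In single lines no member was past 2-fold in U87MG, and *SCD* and *INSIG1* were past it in U251MG.

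Targets of NRF2, the transcription factor that induces antioxidant and detoxification enzymes, also lay on the positive side in all 22 tested members. Of these, 9 were past 2-fold, where 1.44% of all genes tested were past it on that side. The median log2 fold change was -0.65 in U87MG and 0.10 in U251MG, and the median difference of differences was 0.86. *TKT*, transketolase of the pentose phosphate pathway, went from 2790.4 to 1459 CPM in U87MG and from 1345 to 2013 CPM in U251MG, so the 2 lines moved in opposite directions. *HMOX1*, heme oxygenase 1, went from 123.05 to 35.8 CPM in U87MG and from 40.4 to 33.3 CPM in U251MG, and its U87MG control stood above the other 3 libraries. *PGD*, which makes NADPH in the same pathway as *TKT*, had a difference of differences of 1.03, and of 0.94 with total counts and with log2(FPKM + 1). *NQO1* at 0.97, *SLC7A11*, the cystine transporter, at 0.95 and *GCLM* at 0.68 did not reach 2-fold, and the gene for NRF2 itself, *NFE2L2*, was at 0.14. The aldo-keto reductases *AKR1C1*, *AKR1C2* and *AKR1C3*, which reduce steroids and aldehydes, were past 2-fold at 1.66, 1.80 and 1.24. They are close copies that can share reads, and their sum went from 103 to 34.9 CPM in U87MG and from 26.0 to 25.6 CPM in U251MG, a difference of differences of 1.54. The list of aldehyde, retinoid and steroid enzymes, which shares those 3 genes, had 5 of 11 tested members past 2-fold, all positive, beside the same 1.44%. Besides the 3 they were *ALDH3A1* at 1.22 and *DHRS3*, a retinal reductase, which went from 306 to 182 CPM in U87MG and from 119.7 to 168 CPM in U251MG.

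**Figure D3:**
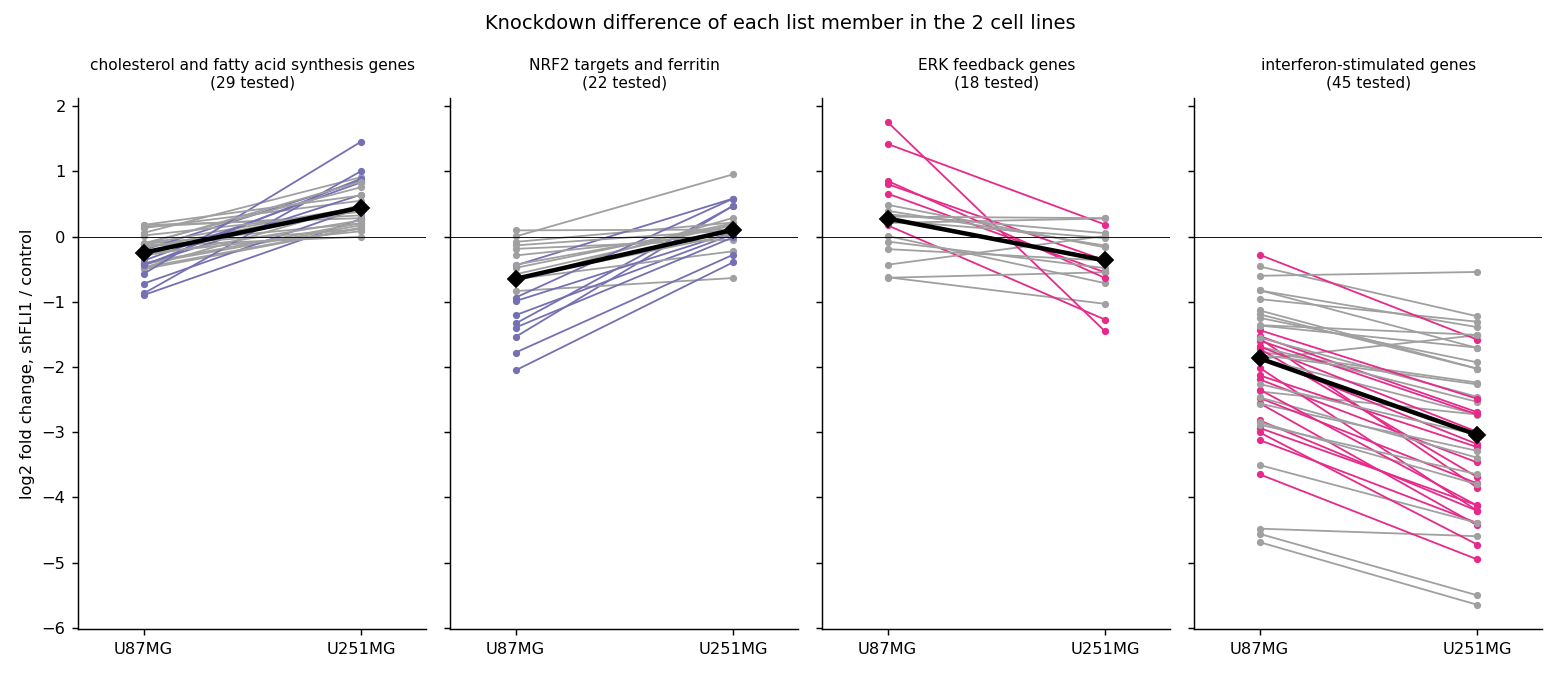
Log2 fold change after *FLI1* knockdown in U87MG and U251MG of each tested member of 4 gene lists, 1 line per gene, purple where the difference of differences is above 1, pink where it is below -1 and grey otherwise, with the list median in black. The sterol and NRF2 medians run upward from -0.25 to 0.45 and from -0.65 to 0.10, the ERK feedback median runs downward from 0.28 to -0.37, and the interferon-stimulated genes are low in both lines and lower in U251MG.

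Genes that are induced by ERK signaling and feed back on it moved the other way. The ERK cascade carries growth factor signals to the nucleus, and the dual-specificity phosphatases, Sprouty proteins and PEA3-type ETS factors are its usual transcript readout. Of 18 tested members 15 had a negative difference of differences, 6 were past 2-fold on that side, against 2.21% of all genes tested, and none on the positive side. The median log2 fold change was 0.28 in U87MG and -0.37 in U251MG, and the median difference of differences was -0.47. *ETV5*, an ETS factor, went from 71.2 to 129 CPM in U87MG and from 141 to 90.7 CPM in U251MG. *DUSP4*, a phosphatase that inactivates MAP kinases, went from 83.4 to 94.0 CPM in U87MG and from 119.6 to 49.4 CPM in U251MG. *CCND1*, cyclin D1, went from 85.3 to 135 CPM in U87MG and from 263 to 179 CPM in U251MG. *ETV5* and *CCND1* were in the class of opposite movement, while *DUSP4* was in that of genes lower in U251MG with little change in U87MG. As differences of differences, these came to -1.49 (interval -1.63 to -1.35) for *ETV5*, -1.45 (interval -1.59 to -1.30) for *DUSP4* and -1.21 (interval -1.33 to -1.09) for *CCND1*. *DUSP6* at -1.17 and *ETV4* at -1.24 (interval -2.0016 to -0.51) were past 2-fold too, though not with log2(FPKM + 1), at -0.76 and -0.70, and *SPRY2* at -0.65 and *SPRY4* at -0.53 were not. The sixth was *IL11*.

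Among 15 tested AP-1 and immediate early genes, 10 had a negative difference of differences, where 51.0% of all genes tested were negative. On that side 3 were past 2-fold, *FOSL1*, *EGR1* and *MYC*, against 2.21% of all genes tested. *EGR1*, a zinc finger factor induced within minutes of growth factor stimulation, went from 19.7 to 40.6 CPM in U87MG and from 21.3 to 12.7 CPM in U251MG. *MYC* went from 100.1 to 137 CPM in U87MG and from 68.7 to 42.7 CPM in U251MG. Each of these was lower after knockdown in U251MG, while in U87MG *EGR1* and *MYC* were higher and *FOSL1* was nearly level. With the median fold change of the genes in its 10 Mb window of the chromosome removed in each line, *MYC* was under 2-fold at -0.77. The other AP-1 subunits were not past 2-fold, with *JUN* at -0.55, *FOSL2* at -0.31 and *JUNB* at -0.26, and *ATF3* was the highest of the list at 0.91. The median of the list was -0.26.

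The windows around the transcription start were searched for the AP-1 motif TGANTCA on both strands, AP-1 being the dimer that *FOSL1*, *JUN* and their relatives form. RefSeq promoter sequences (GRCh38.p14, 250 bases before to 50 after the start) matched 9401 of the genes tested and 260 members. The motif was in 386 of the 9401 (4.11%) and in 17 of the 260 members (6.54%). By class it was in 2 of the 13 matched promoters of genes lower in U251MG only and 1 of 10 higher in U251MG only. It was in 5 of 41 higher in U87MG only and 3 of 35 lower in U87MG only. In the opposite classes it was in 0 of 15 higher in U251MG and 2 of 27 lower in U251MG. Over all 27305 promoters in the RefSeq table the share was 7.76%. The following stretches show it in capitals for 4 named genes, 1 lower in U251MG only, 1 of opposite movement, 1 lower and 1 higher in U87MG only, each read 5′ to 3′ on the strand of the gene.
*F3* (chr1:94541943-94541989, minus strand): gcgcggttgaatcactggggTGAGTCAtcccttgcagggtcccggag
*IL11* (chr19:55370533-55370579, minus strand): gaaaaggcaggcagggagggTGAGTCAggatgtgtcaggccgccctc
*VAV3* (chr1:107688589-107688635, minus strand): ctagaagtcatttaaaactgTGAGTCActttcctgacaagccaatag
*CA9* (chr9:35673831-35673877, plus strand): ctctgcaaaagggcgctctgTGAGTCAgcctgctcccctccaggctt
The *F3* window holds a second match farther upstream. The *VAV3* stretch lies inside the span of the gene (chr1:107571161 to 107965180), so its window is that of an internal start. The same motif thus stood in the windows of genes of different classes. The ETS consensus CCGGAAGT was in 922 of the 9401 promoters (9.81%) and in 5 of those of the 260 members (1.92%), and 2 copies of GGAA in tandem, GGAAGGAA, were in 305 (3.24%) and 10 (3.85%). Over all promoters in the RefSeq table the ETS consensus was in 4.44% and the tandem copies were in 3.58%. A match describes the letters in the window and does not show that a factor binds there.

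Interferon-stimulated genes, which encode antiviral proteins and are switched on by the STAT and IRF factors, were lower after knockdown in both lines and lower still in U251MG. Of 45 tested members 43 had a negative difference of differences and 19 were past 2-fold, all negative, where 2.21% of all genes tested were past it on that side. The median log2 fold change was -1.87 in U87MG and -3.04 in U251MG, and the median difference of differences was -0.93. *IFI6*, a mitochondrial antiapoptotic protein, went from 1673 to 415 CPM in U87MG and from 2508 to 136 CPM in U251MG. *GBP1*, a guanylate-binding GTPase, went from 111 to 37.4 CPM in U87MG and from 85.1 to 5.81 CPM in U251MG. *IFIT3*, a member of a family that recognizes viral RNA, went from 161 to 27.4 CPM in U87MG and from 408 to 18.9 CPM in U251MG. Its neighbour *IFIT2* went from 43.3 to 13.1 CPM in U87MG and from 107 to 8.21 CPM in U251MG. Between the lines they differed by -2.29 (interval -2.56 to -2.05) for *GBP1*, -2.19 (interval -2.25 to -2.13) for *IFI6*, -1.97 (interval -2.26 to -1.69) for *IFIT2* and -1.87 (interval -2.05 to -1.69) for *IFIT3*. The size of the gap varied within the list. *ISG15* was at -1.31, whereas *STAT2* at -0.15, *CMPK2* at -0.12 and *ZC3HAV1* at 0.06 differed little between the lines, and *BST2*, tetherin, was at 0.36. *PARP14* was past 2-fold in U251MG alone, with -1.58 there and -0.28 in U87MG on the log2 scale.

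In the list of HLA class I and antigen processing genes, 16 of 17 were negative and 5 past 2-fold, all on the negative side, beside the same 2.21%. The median log2 fold change was -1.48 in U87MG and -2.28 in U251MG, and the median difference of differences was -0.80. *HLA-B* went from 455 to 20.1 CPM in U87MG and from 2744 to 43.3 CPM in U251MG, *TAP1* went from 161 to 19.6 CPM in U87MG and from 279.7 to 16.3 CPM in U251MG and *TAP2*, the other subunit of the peptide transporter, went from 150.3 to 75.4 CPM in U87MG and from 173 to 36.4 CPM in U251MG. *PSMB9*, an immunoproteasome subunit, went from 23.8 to 1.62 CPM in U87MG and from 44.4 to 1.17 CPM in U251MG, and its shFLI1 values stand on 36 and 35 counts. The differences of differences were -1.49 (interval -1.64 to -1.32), -1.06 (interval -1.27 to -0.86), -1.26 (interval -1.40 to -1.12) and -1.34 (interval -2.06 to -0.67) for these 4 genes in turn. Since HLA genes are alike and polymorphic, reads may be split among them, and the value of *HLA-B* is uncertain for that reason. A motif of GAAA, any 2 bases and GAAA, searched on both strands, which resembles the element bound by ISGF3, was in 257 of the 9401 promoters (2.73%; 3.65% of all in the RefSeq table), in 22 of 36 of the interferon-stimulated genes (61.1%) and in 18 of 42 of the members that moved in the same direction by different amounts (42.9%). Among the classes of opposite movement it was in 1 of 15 and 0 of 27. A stretch from *IFI6* and one from *TAP2* show it in capitals.
*IFI6* (chr1:27672319-27672368, minus strand): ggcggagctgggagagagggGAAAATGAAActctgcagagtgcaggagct
*TAP2* (chr6:32838768-32838817, minus strand): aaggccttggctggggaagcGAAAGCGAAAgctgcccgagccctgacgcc

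**Figure D4:**
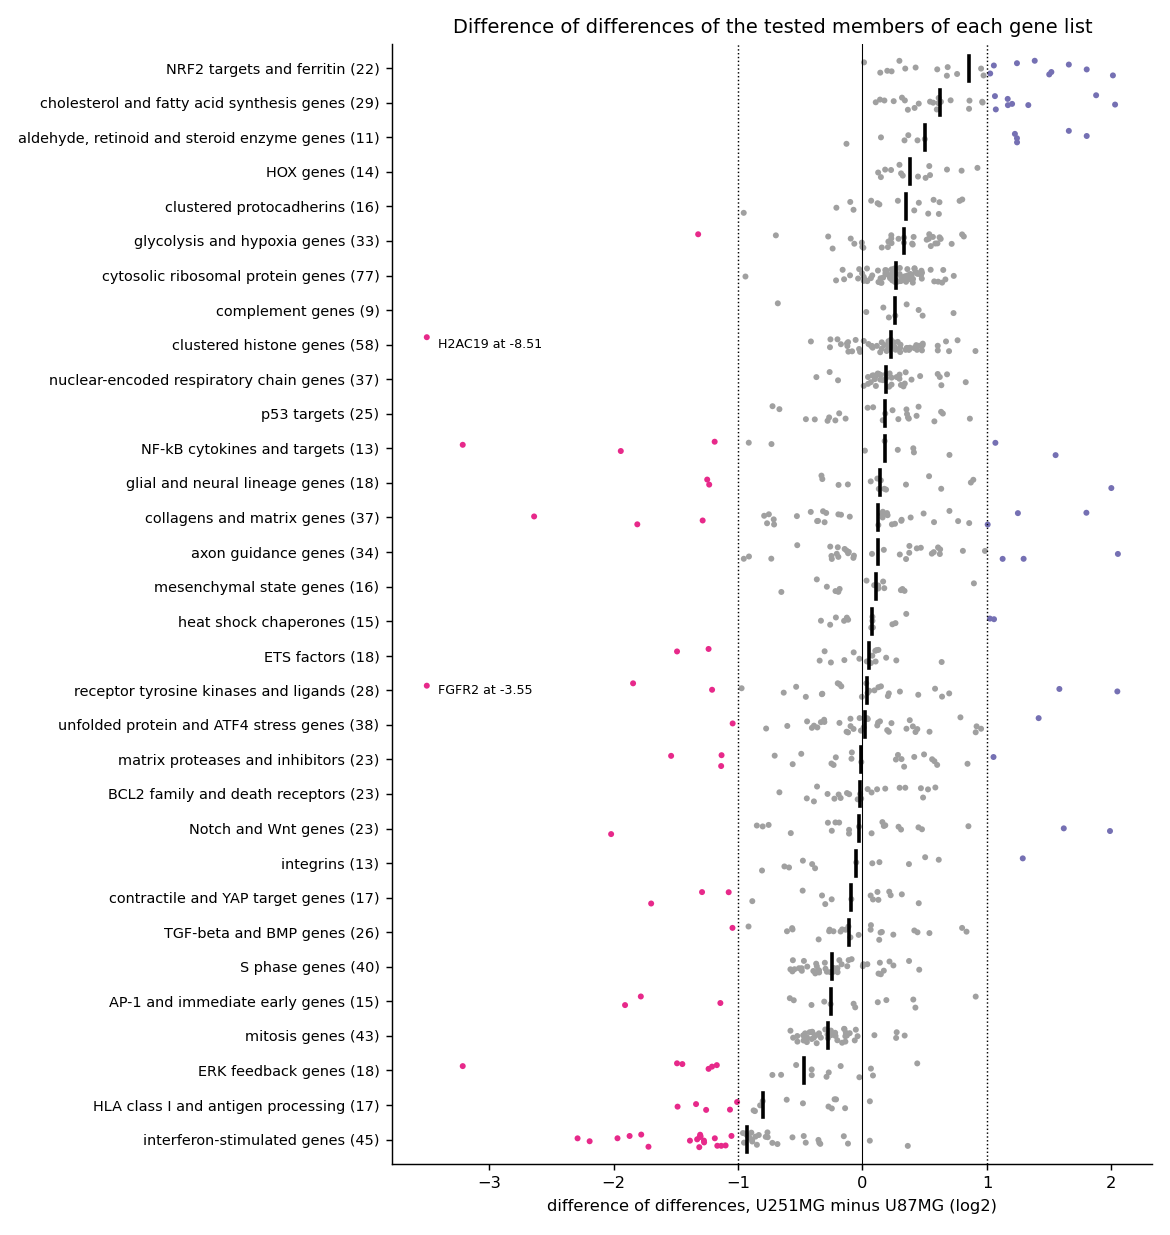
Difference of differences on the log2 scale of each tested member of the gene lists with at least 9 tested members, other than the *ZNF* genes, sorted by the list median (black bar), with dotted lines at 2-fold and the number tested in parentheses. The NRF2 and sterol lists stand at the top with medians of 0.86 and 0.62. The interferon-stimulated genes stand at the foot with -0.93, while most lists centre near 0. *H2AC19* is drawn at the left edge. Its value depends on the prior count, and its reads may be split with *H2AC18*.

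Secreted and adhesion proteins were past 2-fold in both directions. Of 37 collagen and matrix genes 3 were past 2-fold on each side (16.2% together). Of all genes tested 1.44% were past it on the positive side and 2.21% on the negative. *COL1A2* went from 1331 to 444 CPM in U87MG and from 2138 to 1695 CPM in U251MG and *COL13A1* went from 12.8 to 3.96 CPM in U87MG and from 4.77 to 5.21 CPM in U251MG, with differences of differences of 1.25 and 1.80. In FPKM *COL13A1* was under 2-fold, at 0.35 with log2(FPKM + 1) and 0.49 with log2(FPKM + 0.1). The alpha-1 chain of the same collagen, *COL1A1*, had a difference of differences of -1.28 and was higher in U87MG after knockdown, so the 2 chains did not move together. Among 23 matrix proteases and inhibitors 1 was past 2-fold on the positive side and 3 on the negative (17.4% together). *PLAU*, urokinase, went from 351 to 505 CPM in U87MG and from 447 to 293 CPM in U251MG, and *PLAT*, the tissue-type activator, went from 121 to 114 CPM in U87MG and from 144 to 284 CPM in U251MG. The 2 plasminogen activators thus differed between the lines in opposite senses, at -1.13 (interval -1.20 to -1.06) and 1.05 (interval 0.94 to 1.17). *MMP16*, a membrane-type metalloproteinase, went from 36.8 to 97.3 CPM in U87MG and from 22.2 to 26.7 CPM in U251MG. Of 13 integrins *ITGA6* alone was past 2-fold (7.69%), at 1.29. *ITGA6* went from 94.4 to 45.8 CPM in U87MG and from 55.9 to 66.4 CPM in U251MG. Of 26 TGF-beta and BMP genes *TGFBI* alone was past 2-fold, at -1.04. That share of 3.85% was near the 3.65% of all genes tested. Of 17 contractile and YAP target genes *F3*, *CCN2* and *ACTA2* were past 2-fold (17.6%). *CCN2*, connective tissue growth factor, went from 599 to 1163 CPM in U87MG and from 383 to 304 CPM in U251MG, whereas *ACTA2*, smooth muscle actin, was lower after knockdown in both lines and went from 25.0 to 11.8 CPM in U87MG and from 23.5 to 5.21 CPM in U251MG. Their differences of differences were -1.29 and -1.07, and *ACTA2* was at -0.87 with libraries thinned to the smallest depth.

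Cytokines of the NF-kB list divided as well, with 2 of 13 tested past 2-fold on the positive side and 3 on the negative. Of all genes tested 1.44% were past it on the positive side and 2.21% on the negative. *CSF1*, which supports macrophages, went from 492 to 83.7 CPM in U87MG and from 417 to 208 CPM in U251MG, lower in both lines and more so in U87MG. *LIF*, like *IL11* a cytokine that signals through gp130, went from 95.2 to 113 CPM in U87MG and from 100.2 to 52.2 CPM in U251MG. As differences of differences, these came to 1.55 (interval 1.46 to 1.64) for *CSF1* and -1.19 (interval -1.33 to -1.05) for *LIF*. Of 28 receptor tyrosine kinases and ligands 2 were past 2-fold on the positive side, *KDR* and *PDGFRB*, and 3 on the negative, *FGFR2*, *PDGFB* and *TGFA*. Both sides together made 17.9% of the list, against 3.65% of all genes tested. *PDGFB*, a ligand of the receptor encoded by *PDGFRB*, went from 8.65 to 19.5 CPM in U87MG and from 14.2 to 8.82 CPM in U251MG and belonged to the class of opposite movement. *TGFA*, a ligand of the EGF receptor, went from 94.9 to 64.3 CPM in U87MG and from 109.9 to 32.2 CPM in U251MG. The differences of differences of *PDGFB* and *TGFA* were -1.84 and -1.21, and that of *PDGFRB* was 1.58, with the other sign in FPKM as given above.

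Genes of neural development were past 2-fold in both directions. Of 18 glial and neural lineage genes 3 were past it (16.7%), against 3.65% of all genes tested, *L1CAM* on the positive side and *NCAM1* and *SLC1A3* on the negative. *L1CAM*, a neuronal adhesion molecule, went from 6.64 to 0.719 CPM in U87MG and from 92.7 to 44.9 CPM in U251MG, lower in both lines. *NCAM1*, another neural adhesion molecule, went from 11.4 to 20.7 CPM in U87MG and from 38.3 to 29.2 CPM in U251MG, and *SLC1A3*, an astrocyte glutamate transporter, went from 24.0 to 20.1 CPM in U87MG and from 7.57 to 2.64 CPM in U251MG. Between the lines they differed by 1.9993 (interval 1.35 to 2.90), -1.25 (interval -1.57 to -0.93) and -1.23 (interval -1.71 to -0.81) in that order. Of 34 axon guidance genes 3 were past 2-fold (8.82%), all positive, *UNC5B* at 2.05, *EPHA4* at 1.29 and *SEMA6A* at 1.13. *UNC5B*, a netrin receptor, went from 13.3 to 1.93 CPM in U87MG and from 7.80 to 4.88 CPM in U251MG. Of 23 Notch and Wnt genes 3 were past 2-fold (13.04%), the secreted Wnt antagonists *SFRP4* and *SFRP1* on the positive side and the receptor *FZD4* on the negative. *SFRP1* went from 13.1 to 2.16 CPM in U87MG and from 83.7 to 43.9 CPM in U251MG, and *FZD4* went from 4.72 to 7.42 CPM in U87MG and from 32.0 to 12.3 CPM in U251MG. With log2(FPKM + 1), *L1CAM* at 0.36, *UNC5B* at 0.80, *SFRP1* at 0.44, *SEMA6A* at 0.66, *EPHA4* at 0.96, *NCAM1* at -0.97 and *SLC1A3* at -0.92 were all under 2-fold.

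Stress lists were mostly near the middle. Past 2-fold were 5.26% of the unfolded protein and ATF4 genes, 13.3% of the chaperones and 3.03% of the glycolysis and hypoxia genes. The share over all genes tested was 3.65%. Of 38 unfolded protein and ATF4 genes, *DDIT4*, an mTOR inhibitor, was past 2-fold on the positive side (1.42) and *VLDLR* on the negative (-1.04, or -0.54 with the window median removed), and the median was 0.02. *DDIT4* went from 99.2 to 36.4 CPM in U87MG and from 38.6 to 37.8 CPM in U251MG. Of 15 heat shock chaperones the small chaperones *HSPB1* and *CRYAB* were just past 2-fold at 1.06 and 1.02, and just under it with total counts at 0.97 and 0.94. *HSPB1* went from 586 to 249 CPM in U87MG and from 483 to 427 CPM in U251MG. Of 33 glycolysis and hypoxia genes *CA9*, a carbonic anhydrase induced by hypoxia, was past 2-fold on the negative side (-1.32, or -0.93 with the window median removed), while 25 of the 33 were positive and the median was 0.33. *CA9* went from 19.999 to 41.9 CPM in U87MG and from 5.89 to 4.91 CPM in U251MG. None of 25 p53 targets was past 2-fold, with a median of 0.18, and none of 9 complement genes, 16 mesenchymal state genes, 23 BCL2 family and death receptor genes, 3 metallothioneins or 4 cancer-testis antigen genes. Their medians were 0.26, 0.11, -0.02, -0.11 and -0.03.

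Large sets of co-regulated genes were shifted by less than 2-fold. Of 43 mitosis genes 39 had a negative difference of differences and none was past 2-fold. Their median log2 fold change was 0.33 in U87MG and 0.03 in U251MG, and the median difference of differences was -0.28. Of 40 S phase genes 29 were negative, with a median of -0.25. The proliferation marker *MKI67* was at -0.39 and the mitotic kinase *PLK1* at -0.45. On the positive side were 69 of 77 cytosolic ribosomal protein genes with a median of 0.27, 34 of 37 respiratory chain genes with 0.19, all 14 tested *HOX* genes with 0.39, 44 of 58 clustered histone genes with 0.23 and 12 of 16 clustered protocadherins with 0.35. Apart from *H2AC19* among the histone genes, no member of these 5 sets was past 2-fold. Of 18 ETS factors *ETV5* and *ETV4* were past 2-fold (11.1%) and the median was 0.05. Of 355 *ZNF* genes 225 were negative, with a median of -0.11, and 6 were past 2-fold (1.69%). Over all genes tested 51.0% were negative and 3.65% were past 2-fold.

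The difference between the lines also had a pattern along the chromosomes, which was wider in U87MG. The median log2 fold change was taken over the protein-coding genes of each 10 Mb window with at least 15 of them, which gave 254 windows, with positions from the RefSeq table of GRCh38. The standard deviation of the window medians was 0.15 in U87MG and 0.09 in U251MG, and 46 windows in U87MG and 8 in U251MG were farther than 0.2 from 0. On chromosome 17 all 9 windows were above 0 in U87MG, between 0.12 and 0.32. Of the 647 genes there 76.7% were higher after knockdown in U87MG and 48.4% in U251MG, and the median log2 fold changes were 0.22 and -0.01. On chromosome 7 all 12 windows were below 0 in U87MG, with a median over 504 genes of -0.17 in U87MG and 0.03 in U251MG. Parts of other chromosomes stood apart in the same way, and all the regions named here were chosen after their values were seen. In the first 40 Mb of chromosome 9 the median over 114 genes was 0.33 in U87MG and -0.02 in U251MG, against 0.02 and -0.02 over the rest of the chromosome. Beyond 170 Mb on chromosome 3 it was 0.30 and 0.05 over 105 genes, and beyond 170 Mb on chromosome 2 it was -0.21 and 0.06 over 249 genes. The 5 tested *HOXD* genes, from *HOXD10* at 0.30 to *HOXD8* at 0.80, lie in the last of these regions, where the median difference of differences was 0.24. DNA copy number was not analysed here, and its part in these medians was not tested. With the window medians removed in each line, 398 genes were past 2-fold in the difference of differences, and 355 of them were among the 423.

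**Figure D5:**
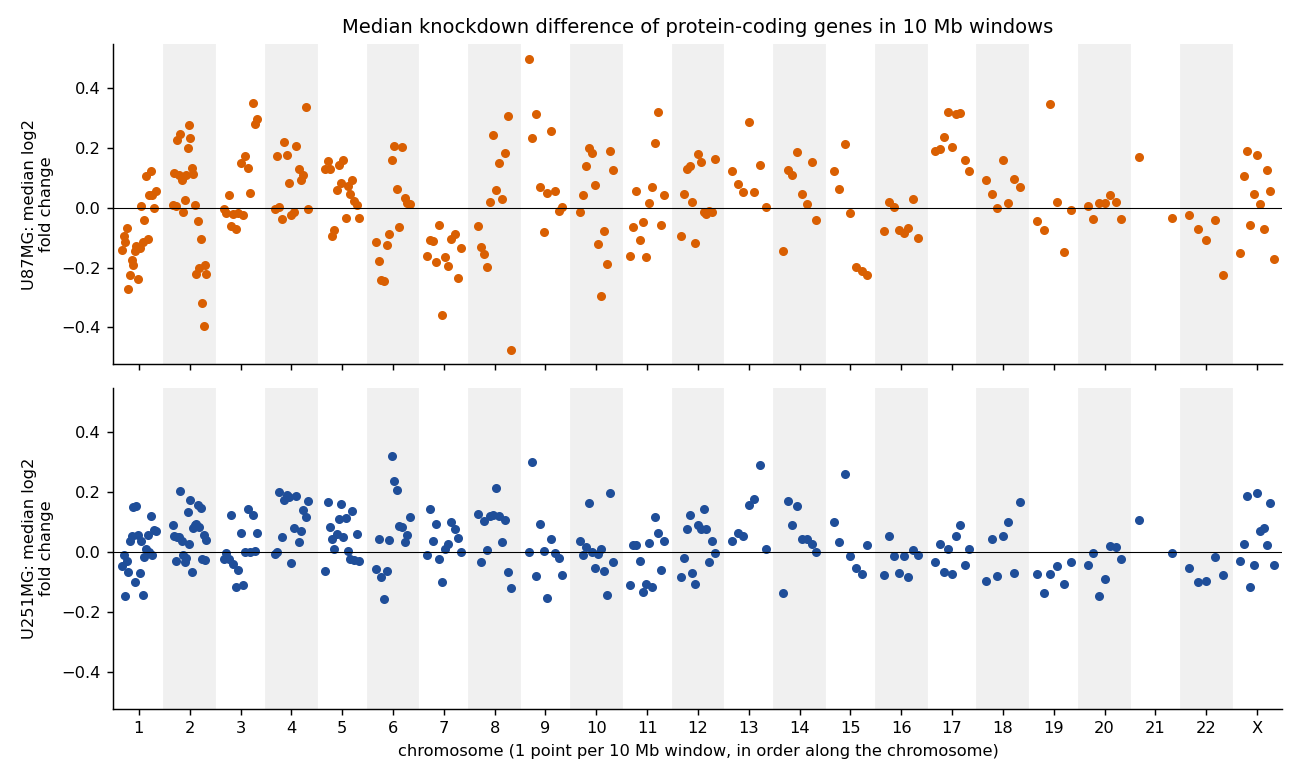
Median log2 fold change after *FLI1* knockdown of the protein-coding genes in each 10 Mb window with at least 15 genes, in U87MG (above) and U251MG (below), with chromosomes side by side and windows in their order along each. In U87MG chromosome 17 lies wholly above 0 and chromosome 7 wholly below it, and chromosome 2 turns from above to below, while the U251MG medians stay nearer 0 with a standard deviation of 0.09.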

How the data were processed

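The authors deposited 1 table of estimated counts, which are not normalized, and FPKM per RNA for the 4 libraries. They aligned 150 bp paired reads of poly-A RNA to GRCh38 with HISAT2, and FPKM came from StringTie; the tool behind the counts is not given in the sources used here. Deposited counts of 185042 linear RNAs were rounded and summed by gene, the depth being 12229780 to 28891055 per library. Circular RNAs, fold change and P-value columns, and 10 value columns without a sample were not used. FPKM values, scaled by transcript length and library size by the authors, served as an alternative.

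TMM factors came from edgeR 4.0.16 (R 4.3.3), and log2 CPM, differences and counting intervals from Python 3.11.15. The intervals printed for the difference of differences are normal intervals of the log ratio of ratios, with 0.5 added to each count. Intervals within a line were exact binomial. The code was tested on simulated data. The members and the 35 gene lists with tested members were chosen with earlier results of these data known. The text names, in each of 6 classes, the 5 genes with a symbol whose counting interval lay farthest from 0, *FLI1* and up to 4 members past 2-fold per list; others are named as chosen later or as members of a list, and some genes that the rule names are not reported here. Alternatives changed the scaling, filter, prior count, unit, depth and threshold.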

Additional observations from a re-analysis of the deposited data

Results flagged for a closer look

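The 69 genes that moved in opposite directions are listed here because the single library pair of one line went one way and that of the other line the opposite way. With 1 library per arm that difference was not tested. Among the leading genes, *CBS* (5.54), *KRT15* (3.06), *SCD* (2.03), *INSIG1* (1.88) and *KDR* (2.05) had a positive difference of differences on the log2 scale. *H2AC19* (-8.51), *IL11* (-3.21), *BASP1* (-3.31), *LOC105378477* (-3.22) and *COL11A1* (-2.64) had a negative one. The value of *H2AC19* depends on the prior count, because its U87MG control count was 0. Its reads may also be split with *H2AC18*, and the sum of both had a difference of differences of 0.19. The U87MG shFLI1 value of *CBS* stands on 5 counts, and its counts are uncertain because of its annotated copy.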

How the results depend on the processing

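No replicate was left out, since each arm of a cell line is 1 library. No paired analysis was possible because there is 1 library per cell line and arm and the difference of differences comes from no test. In the order past 2-fold, U87MG only, U251MG only and opposite directions, the counts of 423, 137, 37 and 69 became 3247, 1103, 481 and 784 with at least 10 counts in 1 library, 684, 217, 79 and 133 with FPKM at log2(value + 0.1), and 154, 36, 22 and 42 where the counting interval lay wholly past 2-fold. A 1.5-fold threshold gave 1603, 609 and 269 for the first 3. The first and the last 2 of these settings are by construction a looser filter, a stricter call and a looser threshold, and the cause of the FPKM counts was not tested. Under the other scalings, prior count, filters, thinning, and removal of window medians or of GC and length trends (the last 2 chosen after seeing the data), the counts stayed within 1.5 times. Total counts and both FPKM settings moved the split, from 39.5% positive to 28.0%, 30.2% and 32.6%, as they moved the median of all genes from -0.01 to -0.09, -0.08 and -0.09. FPKM at log2(value + 1) gave 431 genes, of which 221 were among the 423. The difference of differences of *FLI1*, within counting error of 0, changed sign in 1 setting. Over the 9 settings that change a gene's own value, 235 of the 423 genes fell under 2-fold in at least 1, most with FPKM at log2(value + 1) (203), and 8 changed sign, all with FPKM, *PDGFRB* among them (1.58, then -0.27 and -0.53). Of the 82 genes past 2-fold that the naming rule gave, 25 fell under it and 0 changed sign; 20 fell with FPKM at log2(value + 1), 6 at log2(value + 0.1), 11 with window medians removed, 4 with total counts, 3 with thinning and 3 with the GC and length trends removed. No list median of at least 0.25 in size changed sign in these settings. The median of lists near 0 (stress, collagens, proteases, integrins, chaperones, axon guidance, Notch and Wnt, receptor kinases, ETS, BCL2 and cancer-testis genes) changed sign in 1 to 5 settings. Depth limits the 20% of genes with the fewest counts, where the median counting standard error was 0.26, against 0.06 in the highest.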

Other observations

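An additive model with a cell line and an arm leaves the difference of differences as its 1 residual degree of freedom per gene. Fitted with edgeR over the 11578 genes, it gave a common biological coefficient of variation of 13.4%. This is a spread per library beyond counting error, which a shared-effect analysis of these 4 libraries counts as noise. It holds disagreement between the lines and spread between cultures, which cannot be told apart with 1 library per cell line and arm.

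*CD274*, which encodes the checkpoint ligand PD-L1, was past 2-fold in the difference of differences at -1.23 and went from 16.7 to 19.9 CPM in U87MG and from 21.7 to 10.953 CPM in U251MG. With the window median removed in each line, *CD274* was under 2-fold at -0.73. *EDN1*, the vasoconstrictor endothelin 1, was a gene of opposite movement at -2.03 and went from 9.43 to 15.3 CPM in U87MG and from 4.77 to 1.84 CPM in U251MG. Both were chosen after their values were seen.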
